A study of Homo sapiens with 16 samples.

Results

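The change described here is the one between the middle and the end of a TGF-beta time course in A549 cells: 72 and 96 h against 24 and 36 h. A549 is a long-established line from a human lung adenocarcinoma whose cells look epithelial, and all libraries compared came from cells in which an epithelial to mesenchymal transition (EMT) had been induced with TGF-beta. The comparison was defined by the time labels alone and used no measured value. It takes 8 of the 16 libraries of the series, 4 from 72 and 96 h (2 times, 2 replicates each) and 4 from 24 and 36 h. Per the labels' protocols, Trizol was used for the RNA and the Illumina TruSeq RNA kit for the libraries. There were no untreated cultures at these times, so the effect of longer TGF-beta exposure and that of longer culture cannot be told apart. Whether replicates 1 and 2 were separate cultures is not stated in the labels. The p-values therefore reflect the spread among these 8 libraries, which may be technical. Each group of 4 pools 2 times and 2 replicate numbers, so its SD also takes in differences between those. The libraries are bulk RNA, so fewer cells of a kind and less of an RNA per cell cannot be told apart.

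EMT is the process in which epithelial cells lose their junctions and polarity and take on a migratory, matrix-producing state. TGF-beta starts it by activating receptor kinases that phosphorylate SMAD proteins, which then switch on early targets such as the SNAI and ZEB repressors. The later stage, often called maintenance, is known for sustained loss of E-cadherin, for matrix and cadherin production, and for slower growth. The comparison asks which of these programmes were still moving after the first 36 h.

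Values are TPM, a length-corrected share of the RNA in a library. They were rescaled to a common total after 6 abundant small RNAs were dropped, and tested as log2(TPM + 1), a scale on which the changes of genes with low TPM come out too small. A positive difference means higher at 72 and 96 h. TPM carry no read totals, which leaves the read depth unknown. The 6 small RNAs took 50.6% to 62.1% of the deposited TPM, and this share did not separate the groups (51.4% to 59.1% at 24 and 36 h, exact permutation p = 0.571, two-sided). The number of genes with at least 1 TPM was 15844 in 96 h replicate 2 and at least 17110 in the other 7 libraries. In 36 h replicate 2 more genes (36116) were listed at 0 than in the other 7 libraries (29278 to 30950), and the fit without it also called 111 genes, 67 of them shared. Correlations of log2 values over genes lay between 0.971 (the 2 libraries of 96 h) and 0.994. Markers of the line were present at both stages, though not all at their level before TGF-beta. KRT8 and KRT18, the keratins of simple epithelia, lay at 1210 to 3622 and 1504 to 4197 TPM over the 8 libraries. KRT7 lay at 1009 to 4053 TPM, and ALDH1A1, an aldehyde dehydrogenase abundant in this line, at 6178 to 11420 TPM. AKR1B10 lay at 213 to 876 TPM, against 2988 and 3343 TPM at 0 h. AKR1C1 lay at 32.9 to 240 TPM, against 557 and 729 TPM at 0 h. Markers of other cells were mostly low. Those past the filter numbered 6 of 12 for fibroblasts, 3 of 12 for leukocytes, 4 of 10 for nerve and muscle and 0 of 7 for erythroid cells. For endothelium they were 2 of the 8 that could be matched, which leaves out PECAM1. Their summed levels overlapped between the groups except for the endothelial list, at 43.8 to 56.3 TPM at 24 and 36 h and 31.9 to 36.7 TPM at 72 and 96 h (exact permutation p = 0.0286, the smallest that 4 against 4 can give, and 0.286 after Benjamini-Hochberg adjustment over 10 library measures). That sum was made up mostly of EGFL7 and ESAM, and its part in the results was not tested. The markers SFRP2, TYROBP and MYOD1 were listed at 0 in all 8 libraries.

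Between the middle and the late stage 111 of 19767 genes changed, 41 higher and 70 lower, by limma with the replicate number as a block (Benjamini-Hochberg adjusted p below 0.05). That is 0.562% of the genes tested, 0.207% higher and 0.354% lower, and the smallest adjusted p was 0.00669. The genes that rose did so by 0.56 to 2.65 on the log2 scale, with a median of 1.13, and 29 of the 41 by at least 1. The log2 change of the genes that fell lay between -0.58 and -2.70, with a median of -1.30, and it was at least 1 in size for 50 of the 70. All 111 moved in the same direction in replicate 1 and in replicate 2, as did 26.6% (lower) and 29.2% (higher) of all genes tested. A test that blocks on the replicate favours such genes, and genes whose groups separate, so these counts describe the calls and do not support them. The 4 late and the 4 earlier libraries did not overlap for 36 of the 41 and 56 of the 70, against 6.82% of all genes tested. The mean at 48 h, a time that did not enter the fit, lay between the means of the 2 groups for 38 of the 41 and 58 of the 70. The share of all genes with such a 48 h mean was not worked out, so that count does not support the calls either. The median change over all genes was 0.005, so the groups were centred on each other.

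The number of calls depended on the design and on single libraries. Without the replicate block no gene was called (smallest adjusted p = 0.0712, with 1921 genes at an unadjusted p below 0.05 against 3134 with it). Leaving out 24 h replicate 1 or 96 h replicate 1 left 0 calls. Leaving out 24 h replicate 2 gave 3 calls, and 72 h replicate 1 gave 12. The count was 27 when 36 h replicate 1 was left out and 62 when 72 h replicate 2 was. The calls named below are subject to this. All 111 kept their direction under each alternative that was run and tested them. The alternatives reuse the same libraries, so the kept direction describes the calls and does not support them. No gene was called in the steps within the groups: the smallest adjusted p was 0.214 for 96 h against 72 h (318 genes, 1.61%, at an unadjusted p below 0.05) and 0.0818 for 36 h against 24 h (560 genes, 2.83%). Those steps gave 17 calls without 96 h replicate 1 and 5 without 36 h replicate 1.

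**Figure D1:**
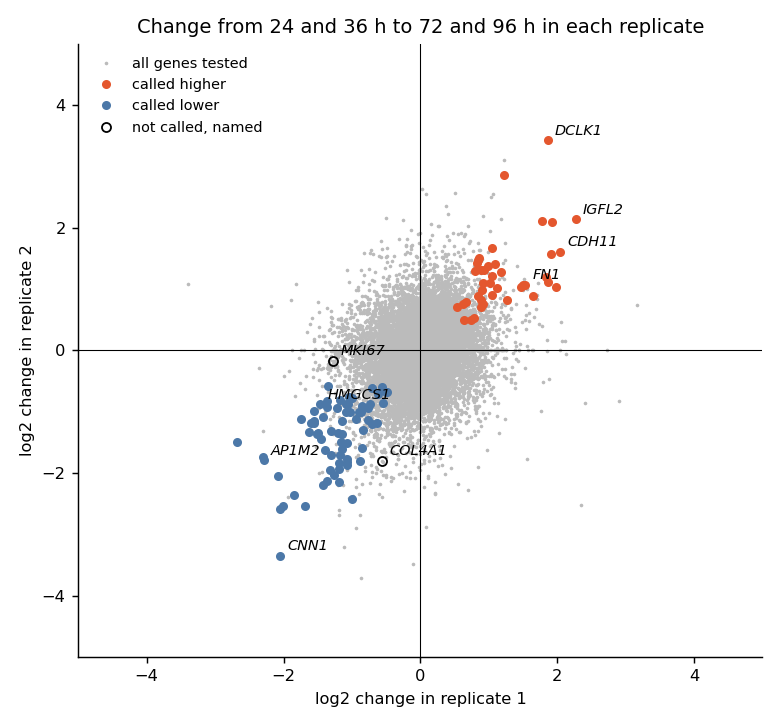
Log2 change from 24 and 36 h to 72 and 96 h in replicate 1 (horizontal) and in replicate 2 (vertical), each the difference of the mean of 2 libraries from the mean of 2. Grey points are the 19767 genes tested, orange the 41 called higher, blue the 70 called lower, and open rings the named genes COL4A1 and MKI67, which were not called. All called genes lie at the upper right or the lower left, and 1 gene lies outside the axes, which end at 5.

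FN1, HAS2 and CDH11 rose. FN1 encodes fibronectin, a matrix glycoprotein whose gain marks EMT, and lies on chromosome 2 (215360440 to 215436172, GRCh38, GENCODE 29). Its level in replicates 1 and 2 was 896 and 668.5 TPM (24 h), 1429 and 1026 TPM (36 h), 2876 and 1574 TPM (72 h), and 3704 and 1920 TPM (96 h). The lowest late library exceeded the highest earlier one, and the 96 h library was the highest of its replicate. The mean rose from 1005 ± 319 to 2519 ± 963 TPM (SD, n = 4), a log2 change of 1.30 (SE 0.21, adjusted p = 0.0398, limma).

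HAS2, the synthase that makes most hyaluronan of mesenchymal cells, stood at 6.25 to 13.1 TPM in the 4 libraries of 24 and 36 h and at 33.1, 26.2, 39.1 and 32.2 TPM in those of 72 and 96 h (each pair replicate 1, then 2). The groups did not overlap, and the log2 change was 1.74 (SE 0.21, adjusted p = 0.0219). HAS2-AS1, the antisense transcript at the same locus, was also higher at 72 and 96 h, at 7.03 ± 2.64 TPM against 2.78 ± 0.57 (SD, n = 4, log2 change 1.04, adjusted p = 0.0428). It is named here after its value was seen. Strand use in the counting is not given in the sources used here, so reads of the 2 genes may not have been told apart.

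CDH11, a cadherin of mesenchymal and bone-forming cells on chromosome 16, rose from different levels in the 2 replicates. In replicate 1 it went from 19.2 and 35.3 TPM at 24 and 36 h to 87.6 and 140 TPM at 72 and 96 h, and in replicate 2 from 6.76 and 4.30 to 20.9 and 16.5 TPM. The groups of 4 therefore overlapped, while within each replicate both late libraries were above both earlier ones. The log2 change was 2.05 in replicate 1 and 1.61 in replicate 2 (1.83 in all, SE 0.24, adjusted p = 0.0219).

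Of the 21 members tested in the list of matrix glycoproteins and proteoglycans, 2 rose (FN1 and HAS2) and 0 fell, where 0.207% of all genes rose. The list's median was 0.26 against 0.005 for all genes. EFEMP1, a fibulin, had a difference of 1.55 without passing the test (40.0 against 109 TPM, adjusted p = 0.0768, no overlap). VCAN, encoding the proteoglycan versican, had 0.48 (adjusted p = 0.398), with 0.89 in replicate 1 and 0.06 in replicate 2. The list's median was 0.092 without 96 h replicate 2. Further secreted or surface proteins rose: ADAMTS6, a secreted metalloproteinase, by 1.502 (5.62 to 20.8 TPM, adjusted p = 0.0495, groups overlapping), HTRA1, a secreted serine protease, by 1.28 (132 to 313 TPM, adjusted p = 0.0382), and FAT3, an atypical cadherin, by 1.27 (33.3 to 80.6 TPM, adjusted p = 0.0428).

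**Figure D2:**
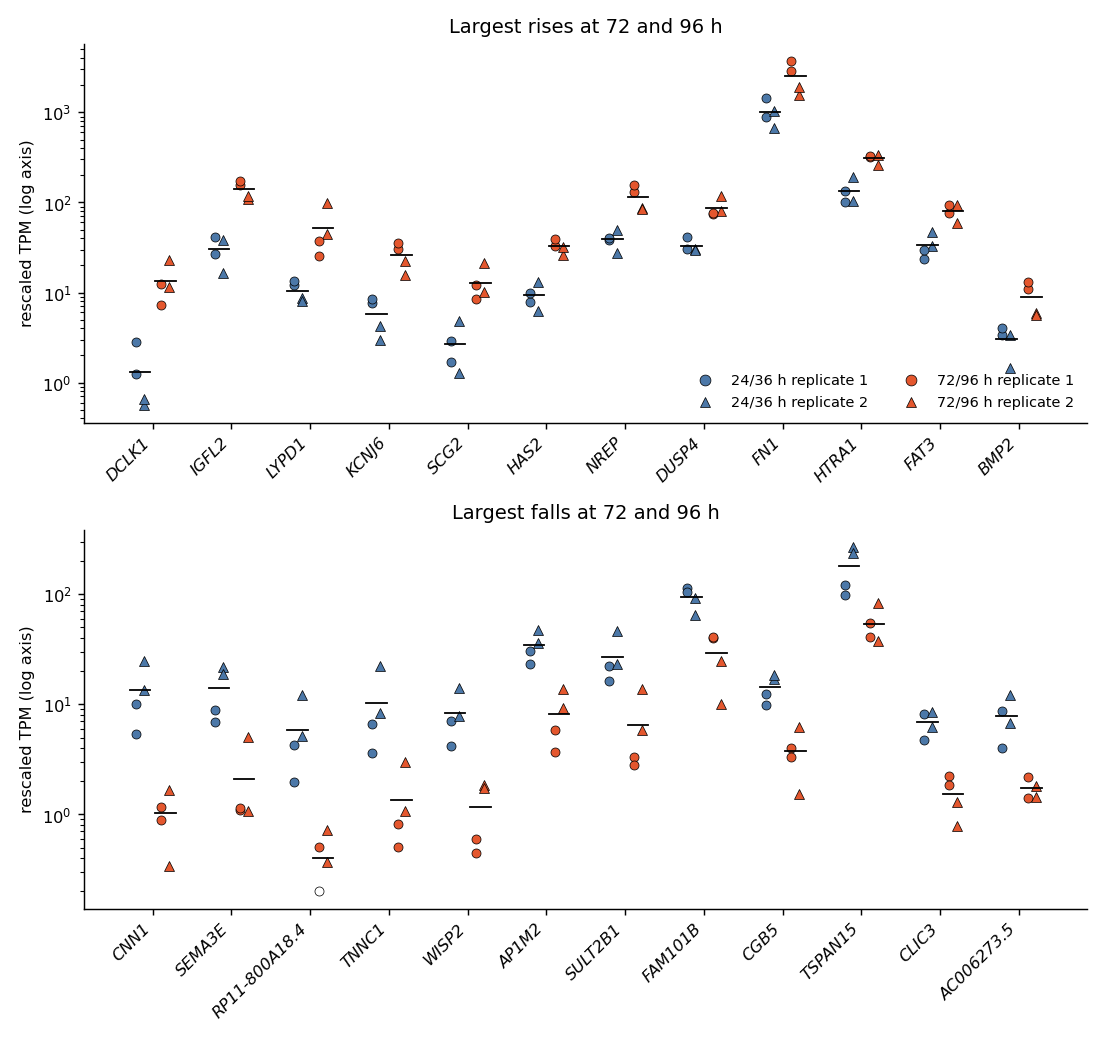
Rescaled TPM (log axis) in each library for the 12 largest rises and 12 largest falls among called genes without overlap and with at least 5 TPM in the higher group. Blue marks 24 and 36 h, orange 72 and 96 h, circles replicate 1, triangles replicate 2, and black lines the mean of 4 libraries. The white circle is the library of 72 h replicate 1 in which RP11-800A18.4 is listed at 0, drawn at the lower edge.

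IGFL2, a secreted protein of the insulin growth factor-like family on chromosome 19 (46143106 to 46161299), was at 26.4 and 16.7 TPM (24 h), then 41.8 and 38.03 TPM (36 h). It had reached 179 and 95.6 TPM by 48 h, and held 157 and 110.3 TPM (72 h), then 172 and 119 TPM (96 h). The log2 change was 2.21 (SE 0.23, adjusted p = 0.0146), at 2.27 in replicate 1 and 2.14 in replicate 2. Its neighbours in the family did not pass the test: IGFL3 had 1.08 (adjusted p = 0.139), IGFL4 1.04 (adjusted p = 0.0816) and IGFL1, the most abundant, -1.20 (647 against 340 TPM, adjusted p = 0.15).

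Among TGF-beta superfamily genes, BMP2, a bone morphogenetic protein, rose by 1.25 from 3.07 ± 1.12 to 8.89 ± 3.74 TPM (SD, n = 4, adjusted p = 0.0428). LTBP1, which holds latent TGF-beta in the matrix, rose by 0.56, from 21.8 to 27.9 TPM in the earlier libraries to 30.8 to 44.1 TPM in the late ones (adjusted p = 0.0413). These were the only calls among the 20 tested ligands, receptors and SMADs and the 18 activin and BMP genes. Of all genes 0.207% rose. SMAD3, a transducer of the pathway, had -0.61 (adjusted p = 0.116), and SMAD7, its feedback inhibitor, -0.15 (adjusted p = 0.75). SFRP1, a secreted Wnt antagonist, rose by 1.10 (21.1 to 46.1 TPM, adjusted p = 0.0275) and was the 1 call among 19 Wnt genes. DUSP4, a nuclear phosphatase that switches off MAP kinases, rose by 1.36 (32.9 to 86.7 TPM, adjusted p = 0.0219) and was the 1 call among 20 AP-1 and immediate early genes. At 0 h DUSP4 had stood at 100 and 113 TPM, so the rise brought it back towards the level before TGF-beta.

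DCLK1, a microtubule-binding kinase, showed the largest rise among the called genes: its 4 earlier libraries held 0.56 to 2.82 TPM and its late ones 7.30, 11.6, 12.6 and 22.9 TPM (log2 change 2.65, SE 0.37, adjusted p = 0.0275). The change was 1.86 in replicate 1 and 3.43 in replicate 2. KCNJ6, an inwardly rectifying potassium channel subunit, had the smallest p of all genes. Its level was 7.57, 2.995, 8.46 and 4.23 TPM at 24 and 36 h and 30.7, 15.5, 35.7 and 22.4 TPM at 72 and 96 h, with replicate 1 above replicate 2 at each time. The log2 change was 2.01 (SE 0.16, adjusted p = 0.00669). LYPD1, a GPI-anchored protein, rose by 2.04 (10.5 to 51.7 TPM, adjusted p = 0.0467), at 1.22 in replicate 1 and 2.87 in replicate 2. SCG2, a secretogranin of secretory vesicles, rose by 1.94 (2.66 to 12.9 TPM, adjusted p = 0.0428), and NREP, a small protein studied in nerve repair and fibrosis, by 1.52 (38.8 to 114 TPM, adjusted p = 0.0219). The nerve and muscle marker list summed to 225 to 252 TPM at 24 and 36 h and 154 to 297 TPM at 72 and 96 h, mostly TUBB3. None of its 4 members tested was called, where 0.562% of all genes were. At that share so short a list mostly holds no call.

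Of the 13 EMT transcription factors tested, SOX4 alone passed the test, which 0.562% of all genes did. SOX4 is a high mobility group factor induced by TGF-beta. The levels at 24 and 36 h were 106, 99.0, 118 and 116 TPM, close together in both replicates, and those at 72 and 96 h were 220, 171, 197 and 209 TPM. The log2 change was 0.85 (SE 0.11, adjusted p = 0.0219), with 0.88 in replicate 1 and 0.82 in replicate 2. HMGA2, a chromatin protein upstream of SNAI1, had 1.08 (27.8 against 61.0 TPM, adjusted p = 0.107) and SNAI1 had -0.90 (adjusted p = 0.107). SNAI2 had 1.05 in replicate 1 and -0.23 in replicate 2 (adjusted p = 0.507), and ZEB1 0.42 and -0.73 (adjusted p = 0.825).

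CDH1, VIM, CDH2 and AGR2 did not pass the test. CDH1, encoding E-cadherin, had dropped from 30.1 and 57.1 TPM (0 h) to 2.26 and 6.32 TPM (24 h). It then held 2.10 and 6.97 TPM (36 h), 1.69 and 5.599 TPM (72 h), and 0.89 and 8.55 TPM (96 h). The replicates stood apart and the stages overlapped (-0.22, SE 0.21, adjusted p = 0.664). VIM, encoding vimentin, lay at 2047 to 2349 TPM at 24 and 36 h and 1781 to 2347 TPM later (-0.11, SE 0.13, adjusted p = 0.753). CDH2, encoding N-cadherin, lay at 121 to 225 and 136 to 286 TPM (0.36, SE 0.10, adjusted p = 0.136). AGR2, a secretory epithelial protein, had been at 136 and 344 TPM before TGF-beta and was at 1.11 to 14.4 TPM in the 8 libraries compared (adjusted p = 0.600). None of the 20 tight junction and polarity genes and none of the 9 desmosome genes tested was called, where 0.562% of all genes were. At that share a list of this size mostly holds no call. In the desmosome list 7 of the 9 were below 0, with JUP at -0.84 (287 against 163.5 TPM, adjusted p = 0.122, no overlap). DSP, in the other direction, had 0.51 (adjusted p = 0.146).

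**Figure D3:**
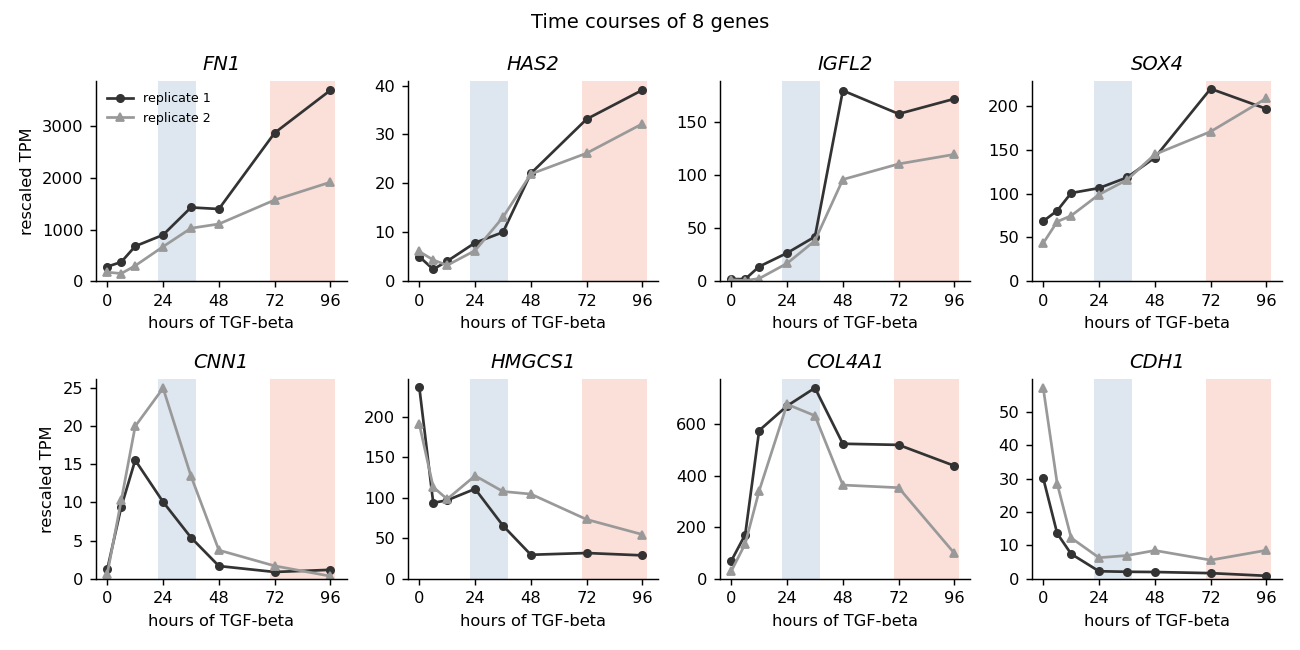
Rescaled TPM of 8 genes from 0 to 96 h of TGF-beta in replicate 1 (dark circles) and replicate 2 (grey triangles), on linear axes from 0. The blue band covers 24 and 36 h and the orange band 72 and 96 h. FN1, HAS2, IGFL2 and SOX4 rise between the bands, CNN1 and HMGCS1 fall, COL4A1 falls further in replicate 2 than in replicate 1, and CDH1 is low in both bands.

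The largest fall was in a contractile gene. CNN1, encoding calponin, an actin-binding regulator of smooth muscle contraction, lies on chromosome 19 (11538717 to 11550323). It had gone from 1.25 and 0.66 TPM (0 h) to 15.5 and 19.9 TPM (12 h). The level was 10.1 and 24.9 TPM (24 h), 5.39 and 13.4 TPM (36 h), 0.89 and 1.69 TPM (72 h), and 1.17 and 0.34 TPM (96 h). The late libraries were thus near the level at 0 h, and the log2 change was -2.70 (SE 0.36, adjusted p = 0.0250). TNNC1, a troponin subunit of slow and heart muscle, fell by 2.10 on the log2 scale (10.2 ± 8.19 to 1.35 ± 1.12 TPM, SD, n = 4, adjusted p = 0.0382).

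These were 2 of the 18 members tested in the contractile list, where 0 rose. Of all genes 0.354% fell. The list's median was -0.64, and 16 of the 18 were below 0 in both replicates, against 26.6% of all genes. The decrease was larger in replicate 2 (median -0.81) than in replicate 1 (-0.28), and 6 of the 18 had an unadjusted p below 0.05 for that difference, against 9.49% of all genes. Without 96 h replicate 2 the median was -0.42. Abundant members did not pass the test: TPM1 (tropomyosin) had -0.14 in replicate 1 and -1.68 in replicate 2 (adjusted p = 0.292), and TAGLN (transgelin) -0.15 and -1.31 (adjusted p = 0.184). ACTA2, encoding smooth muscle actin, had 0.13 (24.1 against 26.3 TPM, adjusted p = 0.823). FAM101B, a filamin-binding protein, fell by 1.81 on the log2 scale (94.2 to 29.02 TPM, adjusted p = 0.0304).

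The listed TGF-beta targets COL4A1 and TGFBI were not called as late falls. COL4A1, a basement membrane collagen chain, held 670, 677, 740.3 and 632 TPM at 24 and 36 h and 519, 353, 438 and 98.8 TPM at 72 and 96 h. The groups did not overlap, and 96 h replicate 2 was far below the other late libraries. The difference was -1.18 (SE 0.38), at -0.56 in replicate 1 and -1.80 in replicate 2 (adjusted p = 0.165). TGFBI, a matrix protein named for its induction by TGF-beta, had -0.41 (7013 ± 967 against 5370 ± 1256 TPM, SD, n = 4, adjusted p = 0.391).

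Over the 24 SMAD targets tested, 0 were called, against 0.562% of all genes, and the median was -0.30. It was 0.08 in replicate 1 and -0.55 in replicate 2, and 7 of the 24 had an unadjusted p below 0.05 for that difference, against 9.49% of all genes. By library, the median against the 24 and 36 h mean of the same replicate was 0.07 for 72 h replicate 1, 0.09 for 96 h replicate 1, -0.25 for 72 h replicate 2 and -1.003 for 96 h replicate 2. Below 0 lay 17 of the 24. TSC22D1, the member with the smallest p, went the other way, at 1.48 (78.6 against 244 TPM, adjusted p = 0.0598, no overlap). Without 96 h replicate 2 the list's median was -0.08. The 6 type IV collagens had a median of -0.90, 0 calls, and -0.52 without that library, and they moved in both directions. COL4A3 had -1.21 in replicate 1 and -2.19 in replicate 2 (adjusted p = 0.0995, no overlap). COL4A4 had -1.15 and -1.685 (adjusted p = 0.0758, no overlap). Above 0 were COL4A5 at 0.26 (adjusted p = 0.323) and COL4A6 at 0.43 (adjusted p = 0.437). The library of 96 h replicate 2 also had the fewest genes with at least 1 TPM. The part of that in these medians was not tested. For all genes its median was -0.10, and with TMM scaling, which centres the libraries, 0.008, where the SMAD target median was -0.86.

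WISP2 and CYR61, secreted matricellular proteins of the CCN family, fell. WISP2 (CCN5) held 7, 14.1, 4.22 and 7.78 TPM at 24 and 36 h and 0.60, 1.86, 0.45 and 1.74 TPM at 72 and 96 h. The fall was alike in the 2 replicates, at -2.09 and -2.04 (-2.06 in all, SE 0.22, adjusted p = 0.0146). CYR61 (CCN1), a YAP target, fell by 1.71 on the log2 scale (adjusted p = 0.0460), with -0.9985 in replicate 1, where it held 180 and 196 TPM before and 96.4 and 90.8 TPM after, and -2.42 in replicate 2, where it held 83.3 and 60.6 TPM before and 17.0 and 9.05 TPM after. Those 2 were the calls among 13 matricellular and YAP target genes, whose median was -0.45, where 0.354% of all genes fell. CTGF (CCN2) had -0.74 (adjusted p = 0.236) and THBS1, encoding thrombospondin, -0.04 (adjusted p = 0.960).

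Other large falls were in AP1M2, TSPAN15, CLIC3, SEMA3E and MMP7. AP1M2, the epithelial form of a clathrin adaptor subunit that sorts proteins to the basolateral membrane, held 30.5, 47.8, 23.4 and 35.9 TPM at 24 and 36 h. It held 3.67, 13.8, 5.87 and 9.21 TPM at 72 and 96 h (-2.04, SE 0.20, adjusted p = 0.0146). Its level at 0 h had been 28.4 and 27.4 TPM, above all 4 late libraries. TSPAN15, a tetraspanin partner of the protease ADAM10, fell by 1.67 on the log2 scale (182 to 54.3 TPM, adjusted p = 0.0382), and CLIC3, a chloride channel family protein, by 1.65 (6.93 to 1.54 TPM, adjusted p = 0.0286). SEMA3E, a secreted guidance cue, fell by 2.32 (14.1 to 2.10 TPM, adjusted p = 0.0240). MMP7, the matrilysin of glandular epithelia, differed strongly between the replicates, at 4.24 to 13.8 TPM in replicate 1 and 79.0 to 188 TPM in replicate 2 at 24 and 36 h. It held 0.80 and 1.64 TPM in replicate 1 and 25.2 and 16.3 TPM in replicate 2 at 72 and 96 h (-2.27, SE 0.37, adjusted p = 0.0405, groups overlapping).

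Among chorionic gonadotropin beta genes, CGB5 and CGB fell. CGB5 went from 0.58 and 0.25 TPM before TGF-beta to 12.3, 17.1, 9.90 and 18.4 TPM at 24 and 36 h and then to 4.05, 6.19, 3.36 and 1.53 TPM at 72 and 96 h (-1.75, SE 0.31, adjusted p = 0.0496). CGB, called CGB3 in GENCODE 29, fell by 1.47 on the log2 scale (adjusted p = 0.0413) and is listed at 0 in 96 h replicate 2. The most abundant copy, CGB8, had -1.08 (61.5 against 30.3 TPM, adjusted p = 0.117, no overlap). These copies are near-identical and share reads, so their separate values are uncertain. The non-coding genes AC006273.5 (LINC01836 in GENCODE 29) and RP11-800A18.4 fell by 1.64 (7.92 to 1.72 TPM, adjusted p = 0.0428) and by 2.12 (5.86 to 0.40 TPM, adjusted p = 0.0349), the second listed at 0 in 72 h replicate 1.

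Genes of cholesterol synthesis made up the list with the most calls. In this pathway acetyl-CoA is built into mevalonate, isoprenoid units and then sterols, and SREBP2, with the CCAAT-binding factor NF-Y and SP1, is known to switch its genes on when sterols run low. Of the 25 members tested 4 fell and 0 rose, where 0.354% of all genes fell, and 9 of the 25 did not overlap between the groups, against 6.82%. The median difference was -0.87, and 23 of the 25 were below 0 in both replicates. Promoters of 3 of the 4 called genes are shown because these genes fell together, chosen to span high, middle and no counts of a motif. HMGCS1 has 2 annotated windows, of which the upstream one is shown, and IDI1 has 3 that are not shown. They are RefSeq windows on GRCh38.p14 of 300 bases, from 250 before to 50 after an annotated start, 5′ to 3′ on the gene's strand, with the NF-Y core CCAAT and its reverse complement ATTGG in capitals.
MSMO1 (chr4:165327419-165327718, plus strand): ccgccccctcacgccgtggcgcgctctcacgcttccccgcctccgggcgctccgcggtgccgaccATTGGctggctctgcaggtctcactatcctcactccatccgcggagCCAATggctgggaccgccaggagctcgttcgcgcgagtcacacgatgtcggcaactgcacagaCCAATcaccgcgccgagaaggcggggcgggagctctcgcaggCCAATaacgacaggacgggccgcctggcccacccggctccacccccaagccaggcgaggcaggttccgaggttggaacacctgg
HMGCS1 (chr5:43313363-43313662, minus strand): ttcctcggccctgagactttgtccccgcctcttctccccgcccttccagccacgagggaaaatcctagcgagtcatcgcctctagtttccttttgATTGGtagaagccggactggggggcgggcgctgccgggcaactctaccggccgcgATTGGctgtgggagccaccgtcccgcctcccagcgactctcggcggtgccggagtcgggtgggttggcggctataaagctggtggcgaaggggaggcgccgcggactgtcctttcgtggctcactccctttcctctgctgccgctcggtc
CYP51A1 (chr7:92134428-92134727, minus strand): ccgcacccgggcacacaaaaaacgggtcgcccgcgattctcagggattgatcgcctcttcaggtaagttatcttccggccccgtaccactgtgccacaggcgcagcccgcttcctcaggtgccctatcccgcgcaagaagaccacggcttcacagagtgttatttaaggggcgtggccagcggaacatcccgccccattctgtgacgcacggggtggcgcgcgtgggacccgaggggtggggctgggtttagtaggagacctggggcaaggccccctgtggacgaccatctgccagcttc
The MSMO1 window holds 4 matches on either strand, that of HMGCS1 2 and that of CYP51A1 0. The other HMGCS1 window holds 0, and the IDI1 windows hold 3, 2 and 0. CCAAT on either strand occurs in 34.6% of all 35116 RefSeq windows of this length. A match is a description of the letters and not a binding site. RefSeq windows were at hand for only 18 of the 25 members, under 80%, so no count over the list is given.

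HMGCS1, the enzyme that makes HMG-CoA at the entry of the pathway, lies on chromosome 5 (43289395 to 43313512). It held 111, 127, 65.6 and 108 TPM at 24 and 36 h and 31.8, 73.3, 28.9 and 54.7 TPM at 72 and 96 h. Within each replicate both late libraries were below both earlier ones, and the groups of 4 overlapped because replicate 2 was higher at each of these times. The log2 change was -1.46 in replicate 1 and -0.88 in replicate 2 (-1.17 in all, SE 0.19, adjusted p = 0.0413). IDI1, which interconverts the isoprenoid building blocks, fell by 1.14 (129 ± 38.01 to 60.4 ± 27.2 TPM, SD, n = 4, adjusted p = 0.0341). MSMO1, a sterol demethylase, fell by 0.99 (103 ± 38.6 to 52.9 ± 25.2 TPM, adjusted p = 0.0467). For both IDI1 and MSMO1 the groups of 4 overlapped. CYP51A1, the lanosterol demethylase, fell by 0.90 (199 ± 32.7 to 108 ± 28.7 TPM, adjusted p = 0.0470) without overlap, and is named after its value was seen.

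The median of the sterol list was -1.34 in replicate 1 and -0.42 in replicate 2, and 13 of the 25 genes had an unadjusted p below 0.05 for the difference (9.49% of all genes), 12 of them lower in replicate 1, while none had an adjusted p below 0.05. FDPS, which makes farnesyl diphosphate, had -1.34 in replicate 1 and -0.65 in replicate 2 (adjusted p = 0.0765 for the change), and SQLE, squalene epoxidase, -1.07 and -0.59 (adjusted p = 0.0599). All 4 late libraries had a negative median: -1.40 and -1.05 at 72 and 96 h in replicate 1, -0.44 and -0.41 in replicate 2. Leaving out 72 h replicate 1 or 96 h replicate 2 gave -0.75 and -0.93.

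Fatty acid genes had 2 calls, both lower, where 0.354% of all genes fell. SCD, the desaturase that makes monounsaturated fatty acids, held 780, 986, 669 and 992 TPM at 24 and 36 h and 258.5, 598.5, 302 and 515 TPM at 72 and 96 h (-1.10, SE 0.14, adjusted p = 0.0219). No late library reached an earlier one. ME1, malic enzyme, which supplies NADPH, fell by 0.60 (84.3 to 55.7 TPM, adjusted p = 0.0382). The median over the 20 genes tested in that list was -0.40. FASN, fatty acid synthase, had -1.50 in replicate 1 and -0.29 in replicate 2 (adjusted p = 0.119). SULT2B1, a sulfotransferase of cholesterol and other hydroxysteroids, fell by 2.02 (27.0 to 6.46 TPM, adjusted p = 0.0275).

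**Figure D4:**
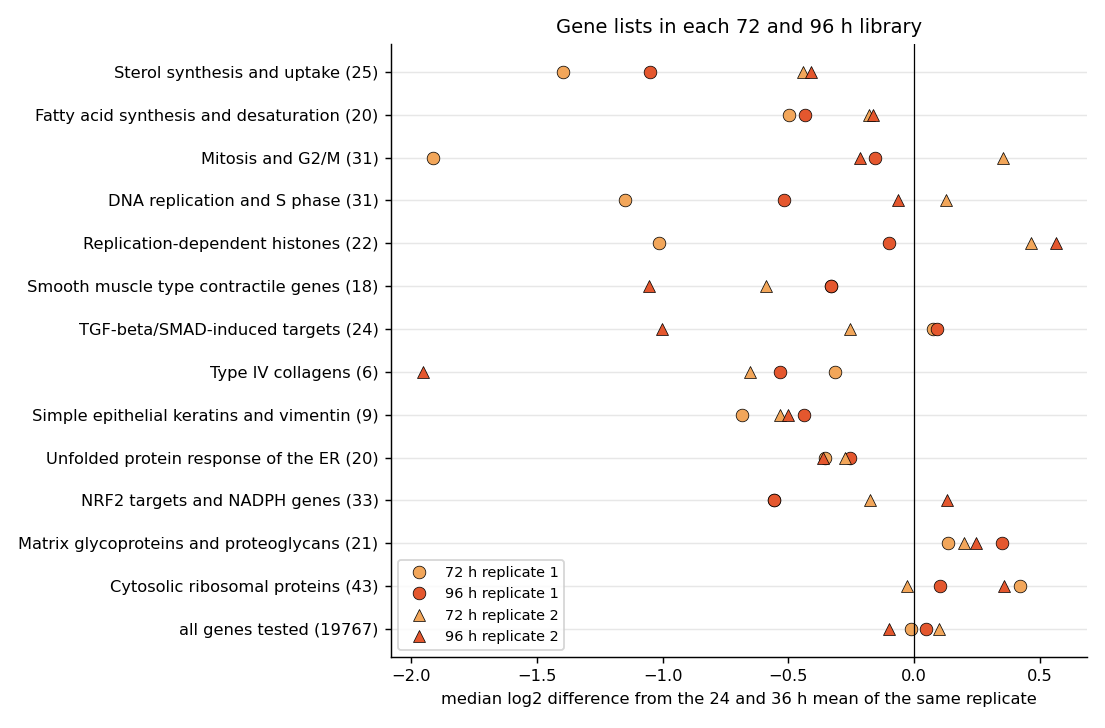
Median log2 difference of each gene list in each late library from the 24 and 36 h mean of the same replicate (list sizes in brackets). Circles are replicate 1 and triangles replicate 2, light orange 72 h and dark orange 96 h. Sterol genes lie below 0 in all 4 libraries, mitosis genes lie at -1.91 in 72 h replicate 1 alone, and SMAD targets and type IV collagens are lowest in 96 h replicate 2.

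HSPB1, PRDX1, ABCG2 and CES1 fell. HSPB1, a small heat shock protein that binds actin, held 849, 1752, 854 and 1389 TPM at 24 and 36 h and 416, 691, 350 and 444 TPM at 72 and 96 h (-1.32, SE 0.16, adjusted p = 0.0219). It was the 1 call among 19 heat shock genes. PRDX1, a peroxiredoxin, fell by 0.95 (2008 to 1042 TPM, adjusted p = 0.0413), and ABCG2, a drug efflux pump, by 1.48 (7.49 to 2.10 TPM, adjusted p = 0.0275). With ME1 they were 3 of 33 NRF2 and NADPH genes tested, where 0.354% of all genes fell. The median of that list was -0.26, with -0.56 in both late libraries of replicate 1, -0.18 in 72 h replicate 2 and 0.13 in 96 h replicate 2. CES1, a carboxylesterase, fell by 1.44 (6.34 to 1.68 TPM, adjusted p = 0.0219), and FGB, the fibrinogen beta chain, by 1.37 (5.35 to 1.49 TPM, adjusted p = 0.0275).

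Mitosis genes were lowest in 1 late library, 72 h replicate 1. MKI67, the Ki-67 antigen of cycling cells, held 103, 34.2, 101 and 38.2 TPM at 24 and 36 h. It held 19.2 TPM in 72 h replicate 1, 46.5 TPM in 72 h replicate 2, 89.0 TPM in 96 h replicate 1 and 22.1 TPM in 96 h replicate 2, so the groups overlapped (-0.72, SE 0.44, adjusted p = 0.475). At 48 h it had been 7.04 and 25.3 TPM. Of 31 mitosis genes 0 were called, against 0.562% of all genes, and their median was -0.47. By library the median was -1.91 in 72 h replicate 1, 0.35 in 72 h replicate 2, -0.16 in 96 h replicate 1 and -0.21 in 96 h replicate 2. Without 72 h replicate 1 the median over the list was 0.004.

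The 31 S phase genes also had 0 calls, against 0.562% of all genes, with a median of -0.85 in replicate 1 and 0.04 in replicate 2. The difference between the replicates had an unadjusted p below 0.05 for 22 of the 31, all lower in replicate 1, against 5.06% of all genes in that direction, and no adjusted p below 0.05. Without 72 h replicate 1 the median went from -0.44 to -0.20. The 22 replication-dependent histone genes had a median of -0.54 in replicate 1 and 0.53 in replicate 2, and 0.29 without 72 h replicate 1. CCND3, a D-type cyclin of the G1 phase, was the 1 call among 19 cyclins and inhibitors. It fell by 0.97 (87.6 ± 9.55 to 47.1 ± 19.4 TPM, SD, n = 4, adjusted p = 0.0481), with -1.36 in replicate 1 and -0.57 in replicate 2. CDKN1A, encoding the inhibitor p21, had 0.17 in replicate 1 and -0.84 in replicate 2 (adjusted p = 0.465).

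Over all genes the test of whether the change differed between the replicates called 0 of 19767 genes (limma interaction, smallest adjusted p = 0.408, with 1875 genes at an unadjusted p below 0.05). Without 72 h replicate 2 the same test called 553 genes, 459 of them with the more positive change in replicate 1. There the late side of replicate 2 is the single library of 96 h. It called 5 genes when 96 h replicate 1 was left out, 2 without 24 h replicate 2, and 1 without 72 h replicate 1. In each of these fits 1 side is a single library, which is assumed to vary like the other groups. The keratin, unfolded protein response and ribosomal protein lists had no calls, against 0.562% of all genes. The 9 genes of the keratin list (KRT7, KRT8, KRT18, KRT19, KRT80, KRT81, KRT86, NES and VIM) were all below 0 (median -0.61, 7 of the 9 in both replicates). KRT8 had -0.67 (adjusted p = 0.0939) and KRT18 -0.56 (adjusted p = 0.129). Of 20 genes of the unfolded protein response of the endoplasmic reticulum 15 were below 0 in both replicates, against 26.6% of all genes (median -0.32), with CALR, a calcium-binding chaperone, at -0.60 (adjusted p = 0.0939). Of 43 cytosolic ribosomal protein genes 35 were above 0 in both replicates, against 29.2% of all genes, with a median of 0.22. In all, 18 of the 56 lists examined held at least 1 called gene, and 55 had a member tested. In no list were 82 of the 111 called genes. How many lists would hold a call at the 0.562% of all genes was not worked out. These counts therefore say nothing on whether the lists held more calls than other genes.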

How the data were processed

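RNA-seq of A549 cells was compared in 8 of 16 libraries, grouped by the time and replicate number in the labels. The authors deposited gene abundances as TPM, made with Bowtie and RSEM per the submitters' processing notes. Versions, genome build, annotation and strand use were not given in the sources used here. Here 6 small RNAs (RMRP, RPPH1, RN7SK and RN7SL1 to RN7SL3) were dropped, each library was rescaled to a sum of 1000000, and log2(TPM + 1) was tested for genes that reached 1 TPM in 2 or more of the 8 libraries (19767 of 57773). The filter uses any of the libraries, so genes high in 1 group pass through that group.

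Tests used limma 3.58.1 in R 4.3.3 (empirical Bayes with a mean trend, two-sided, Benjamini-Hochberg over all genes tested, calls at an adjusted p below 0.05). The main fit had the 2 groups of 4 libraries and the replicate number as a block. The deviations of same-numbered libraries from their time means were correlated in 6 of 6 pairs of times (correlations of 0.366 to 0.512), and the pairing comes from the numbers in the labels, which do not say what a number marks. The change was compared between replicates by an interaction term, and 96 with 72 h and 36 with 24 h in a fit of all 16 libraries. Library measures were tested by exact permutation. The scripts were tested on simulated data.

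The genes named were the 12 largest rises and falls among called genes whose libraries did not overlap and whose higher group averaged 5 TPM or more, up to 3 called members per list and direction, and 15 genes always included, of which some, like some list members, are not reported here. Others are given as list members with their values. The members and the 56 lists were chosen with earlier results of these data known. Of the symbols in the lists, 2 were not matched. Gene positions are from GENCODE 29 (GRCh38) by Ensembl identifier. Alternatives were other scalings (TPM as deposited, and a trimmed mean of M values, TMM, in which 30% of ratios and 5% of mean levels are trimmed), pseudocounts, filters, designs, single times and each library left out.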

Additional observations from a re-analysis of the deposited data

Results flagged for a closer look

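In 5 of 132 groups of 4 libraries examined (3.79%), the highest or lowest library stood apart from the others by most of the group's range (Dixon's test at the 95% level), and chance gives about 1 group in 20. DUSP4 was at 41.7 TPM in 36 h replicate 1 against 29.4 to 30.6 TPM in the other libraries of 24 and 36 h. It was at 116.7 TPM in 96 h replicate 2 against 74.4 to 80.3 TPM in the other late libraries. SEMA3E was at 5.08 TPM in 72 h replicate 2 and at 1.08 to 1.15 TPM in the other late ones, all below the lowest earlier library. The number of genes with at least 1 TPM was 15844 in 96 h replicate 2 and 17836 to 18209 in the other late libraries. The erythroid markers summed to 1.74 TPM in 36 h replicate 2 and 0.376 to 0.494 TPM in the other libraries of its group, with no member past the filter.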

How the results depend on the processing

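All 111 calls kept their direction under each alternative that tested them. The alternatives reuse the same libraries, so this does not support the calls. The count of calls varied. It was 109 with TPM as deposited (96 of the 111 among them), 161 with TMM scaling (106), 74 and 113 with pseudocounts of 0.1 and 5, and 110 with a filter of 5 TPM in 4 libraries. It was 1 with no filter on low values (35422 genes tested), 0 with no replicate block, 207 (58 higher, 149 lower) with a mean for each time in 16 libraries, and 0 to 134 with 1 library left out. It was 0 for 72 h alone and 7 for 96 h alone against 24 and 36 h, and 11 against 24 h alone and 0 against 36 h alone. Chosen after seeing the data, TMM scaling gave 0 calls without the replicate block and 225 in the 16 libraries. The interaction gave 0 to 553 calls with 1 library left out. The step from 72 to 96 h gave 0 to 17 with 1 library left out, and that from 24 to 36 h 0 to 5, and 1 each with no replicate block and with TPM as deposited. Of 937 repeats for the 43 named genes called, 376 stayed past the threshold, 561 did not and 0 reversed. The cause of these differences was not tested. Low TPM limit the values of genes near 1 TPM, and the depth behind them is unknown.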

Other observations

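Called genes outside the lists, named here after their values were seen, included more secreted and surface proteins. BDNF, a neurotrophin, rose by 1.18 on the log2 scale (adjusted p = 0.0318, limma), and TENM4, a teneurin adhesion protein, by 1.49 (adjusted p = 0.0382). BHLHE41, a circadian transcriptional repressor, rose by 1.22 (adjusted p = 0.0323), and SVIL, an actin-binding protein of the membrane skeleton, by 1.01 (adjusted p = 0.0219).

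Among the falls, FXYD2, a regulatory subunit of the sodium pump, had a log2 change of -2.09 (adjusted p = 0.0253). Its level differed between the replicates, from 12.9 and 17.2 TPM to 1.36 and 1.60 TPM in replicate 1 and from 69.6 and 102 TPM to 39.3 and 21.6 TPM in replicate 2. APOC1, a lipoprotein component, had -1.39 (adjusted p = 0.0146), ACOX3, a peroxisomal oxidase of fatty acids, -1.43 (adjusted p = 0.0275), and FITM2, which acts in lipid droplet formation, -1.35 (adjusted p = 0.0467). ENO3, the muscle form of enolase, had -1.51 (adjusted p = 0.0146), MYL7, an atrial myosin light chain, -1.57 (adjusted p = 0.0328), and EDN1, encoding endothelin 1, -1.02 (adjusted p = 0.0413). SFN, the 14-3-3 sigma protein of epithelia, had -0.97 (adjusted p = 0.0390). ESAM, an adhesion molecule of the endothelial list, had -1.94 without passing the test (9.45 to 17.6 TPM against 0.58 to 4.99 TPM, adjusted p = 0.0676).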
